A study of Mus musculus with 13 samples.

Results

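The 37 genes of the mouse mitochondrial genome were followed through an RNA pull-down with the RNA-binding part of dAKAP1. They were all features of the deposited table whose symbol starts with mt-, out of 27071 features: 13 messengers, 2 ribosomal RNAs and 22 transfer RNAs. All 37 lie on chromosome MT, with coordinates from RefSeq for GRCm38.p6. In the KHT group, purified protein of the KH and Tudor domains of dAKAP1, tagged with maltose-binding protein (MBP), was incubated with total RNA from the mouse Leydig tumour line MA-10 and recovered with an antibody against the tag. The NEG group went through the same recovery with empty beads, with MBP or with a KHT protein carrying the GDDG change, and the sources used here do not tell which NEG library had which. The IPT group is the RNA that went in, with no treatment. Of 4 KHT, 5 NEG and 4 IPT libraries, NEG 2 held no counts, which left 4 in each group. Values with ± are means and SDs over the 4 libraries of a group. Every group carries RNA of this 1 cell line, grown in RPMI medium with horse serum, and the pull-down took place in a tube with extracted RNA, where the mitochondrial membranes that separate these transcripts from dAKAP1 in a cell are absent.

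The mitochondrial genome is transcribed from both strands into long precursors that are cut apart at the transfer RNAs lying between many of the other genes. Its messengers are translated inside the organelle by ribosomes built around its own ribosomal RNAs, and they encode core subunits of complexes I, III and IV of the respiratory chain and of ATP synthase (complex V). dAKAP1 is anchored on the cytosolic face of the outer mitochondrial membrane, where it holds protein kinase A and binds messengers of nuclear genes. In Leydig cells mitochondria also carry out the first step of steroid synthesis.

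Total estimated counts were 1955446 to 3689792 in KHT, 1162178 to 1618998 in NEG and 2487679 to 3085423 in IPT libraries. Outside the 9 features that each held at least 0.5% of pooled NEG counts, mt-Rnr2 among them, 929348 to 2101632 counts remained in KHT libraries, 31318 to 49062 in NEG libraries and 1542713 to 2237374 in IPT libraries. Scaling by the trimmed mean of M-values (TMM) gave factors of 2.05 to 3.10 in KHT, 0.0994 to 0.201 in NEG and 2.70 to 3.13 in IPT, so a NEG value in counts-per-million (CPM) rests on few reads outside those features. All 6 Leydig markers were detected, with 1255 to 3520 summed counts in KHT, 0 to 72 in NEG and 2472 to 4462 in IPT libraries. Sertoli cell markers summed to 16 to 41, 0 and 22 to 47 counts in KHT, NEG and IPT libraries, and germ cell markers to 6 to 27, 0 and 14 to 35 counts. The endothelial markers Pecam1 and Cdh5 summed to 62 to 191, 7 to 35 and 80 to 264 counts, the single macrophage marker in the table, Cd68, to 4 to 10, 0 and 0 to 6, and peritubular markers to at most 4. Normalised, Pecam1 was highest in NEG, at 6.64 ± 4.08 CPM in KHT, 112 ± 61.3 in NEG and 3.59 ± 0.317 in IPT. It was lower in KHT than in NEG (log2 fold change -4.09, edgeR adjusted p = 5.98e-05) and higher in NEG than in IPT (4.92, edgeR adjusted p = 3.95e-06). Whether other cell types had a part in any result was not tested. The labels do not name separate cultures, so the p-values below measure only the spread between libraries, which may be technical. In NEG, that spread also takes in any difference between empty beads, MBP and the GDDG protein. Whether NEG 1 or NEG 5 was another kind of control than the rest is not known.

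Mitochondrial messengers were recovered with KHT at much the same share as in the input, and took a smaller share of all counts in the negative controls. The 13 messengers together made up 1.07% ± 0.206 of all counts in KHT, 0.0320% ± 0.0429 in NEG and 1.11% ± 0.124 in IPT. KHT libraries ran from 0.823% to 1.30% and IPT libraries from 0.929% to 1.21%, so the ranges overlapped, and each NEG library lay below both, at 0.0948% or less. Without NEG 5, the highest of them, the NEG mean was 0.0110%. Taken instead as a share of the counts outside the 9 features, messengers made up 1.74% to 2.03% in KHT libraries, 0.0160%, 0.667%, 0.442% and 2.35% in NEG 1, 3, 4 and 5, and 1.47% to 1.84% in IPT libraries. By that measure NEG 5 lay above every KHT and IPT library and the other NEG libraries below all of them. The 22 transfer RNAs made up 0.0184% ± 0.00388, 0.000641% ± 0.000671 and 0.0190% ± 0.00359 of all counts in KHT, NEG and IPT. The mean shares of the ribosomal RNAs, in contrast, were of the same order in all 3 groups, at 1.78% ± 1.46 in KHT, 1.03% ± 0.0912 in NEG and 1.30% ± 0.0736 in IPT. KHT 3 raised the KHT mean, which was 1.05% without it, below that of IPT. The number of messenger counts per ribosomal RNA count was 1.31, 0.847, 0.292 and 0.838 in KHT 1 to 4, then 0.000298, 0.0229, 0.0108 and 0.0820 in NEG 1, 3, 4 and 5, and 0.853, 0.772, 0.885 and 0.891 in IPT 1 to 4. This ratio does not depend on how libraries are scaled, and all NEG libraries were below all others. Its denominator includes mt-Rnr2, 1 of the 9 features that were defined by their share of NEG counts. On total counts, 97.3% of all genes tested were higher in KHT than in NEG. The median log2 fold change was then 5.66 over all genes and 4.89 over the messengers, so a low ratio in NEG is not particular to them. Libraries were made with depletion of ribosomal RNA per the labels' protocols, while polyA RNA is named as the molecule, and how far either acts on mitochondrial ribosomal RNA was not tested.

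**Figure D1:**
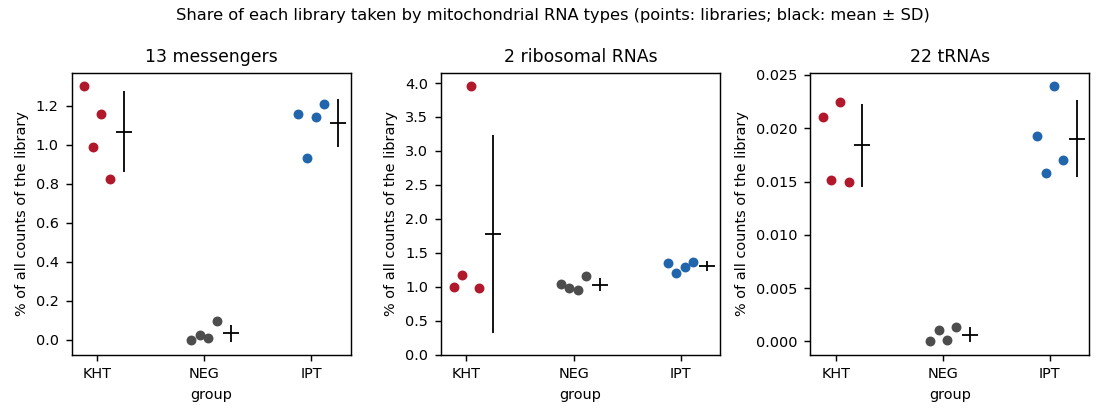
Percent of all counts of a library held by the 13 messengers, the 2 ribosomal RNAs and the 22 transfer RNAs (y axes) in KHT, NEG and IPT (x axes); coloured points are libraries and black bars the mean ± SD of 4. Messengers and transfer RNAs lie near 0 in NEG, where the ribosomal RNAs stand at 1.03%, and KHT 3 stands alone at 3.96% ribosomal RNA.

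Of the 37 genes, 23 passed the filter on low counts and were tested among 10714 genes: all 13 messengers, both ribosomal RNAs and 8 transfer RNAs. A gene absent from NEG could pass through KHT and IPT alone.

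KHT was set against NEG to see which RNAs came down with the bait beyond what the recovery brings by itself. With TMM scaling, 4 of the 23 tested genes were higher in KHT, where 31.0% of all genes tested were, and 2 were lower, where 2.72% of all genes were (edgeR's quasi-likelihood test, Benjamini-Hochberg adjusted over all genes). The 4 were mt-Nd3 and mt-Nd4l, messengers of complex I subunits, and mt-Ty and mt-Ts1, the transfer RNAs for tyrosine and serine. The 2 lower ones were the ribosomal RNAs. The median log2 fold change was 0.74 over the 23 genes and 1.06 over the messengers, against 1.73 over all genes tested. Scaled by total counts alone, the median of all genes moved to 5.66, 97.3% of them were higher in KHT, and the count was 21 of 23 higher and 0 lower.

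mt-Nd3 (MT, 9459 to 9806) had 891, 347, 1664 and 233 counts in KHT 1 to 4, none in any NEG library, and 696, 681, 1043 and 698 in IPT 1 to 4. KHT and NEG did not overlap, whereas KHT and IPT did. Set against 3 counts over the NEG group as a floor, the KHT level was at least 33.4-fold higher (edgeR adjusted p = 0.00106), and at least 571-fold on total counts. mt-Nd4l (MT, 9877 to 10173) lies just downstream, separated by the arginine transfer RNA gene mt-Tr. It had 172, 120, 352 and 123 counts in KHT, none in NEG, and 271, 187, 238 and 260 in IPT. Counted without its nuclear copy, the KHT level was at least 8.18-fold that of NEG (edgeR adjusted p = 0.00195), or at least 139.7-fold on total counts. A nuclear copy on chromosome 1, Gm10222, whose annotation runs collinear with mt-Nd4l over 296 bases, held 4 counts in NEG 3 and 3 in NEG 5 and none in any KHT or IPT library. With these added to mt-Nd4l, the log2 fold change was 1.76 (SE 0.64, edgeR adjusted p = 0.0390).

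The zeros can also be read against the other messengers, without library scaling. mt-Nd3 made up 2.48% ± 1.11 of the counts of the 13 messengers in KHT and 2.59% ± 0.845 in IPT, and mt-Nd4l 0.686% ± 0.130 in KHT and 0.771% ± 0.0558 in IPT. In NEG, 0 of 1575 messenger counts allow a share of up to 0.190% for each, 0.260% from the 1155 counts of NEG 5 alone and 0.714% from the 420 counts of NEG 1, 3 and 4. The KHT mean of mt-Nd3 lies above all of these limits, while that of mt-Nd4l lies above the limits that include NEG 5 and below the one without it. For mt-Nd4l, the limits apply only to reads assigned to the gene itself. They leave out the 4 counts in NEG 3 and 3 in NEG 5 assigned to its copy Gm10222, and do not hold if those belong to mt-Nd4l. The limits cover counting error only and take each count as a separate read, so they would be higher if both mates of a pair had been counted.

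mt-Ty (MT, 5260 to 5326) had 38, 20, 48 and 29 counts in KHT, none in NEG, and 47, 31, 34 and 50 in IPT. The KHT level was at least 1.44-fold that of NEG (edgeR adjusted p = 0.0195), or 24.6-fold on total counts. mt-Ts1 (MT, 6870 to 6938), which overlaps the end of mt-Co1 by 3 bases on the opposite strand, had 89, 24, 42 and 16 counts in KHT, none in NEG, and 55, 45, 58 and 48 in IPT. The KHT level was at least 1.82-fold that of NEG (edgeR adjusted p = 0.0295), or 31.1-fold on total counts. Both calls rest on few counts. The bounds take each count as a separate read. If both mates of a pair had been counted, the bounds under TMM scaling would no longer lie above equal levels. With halved values, 2 mitochondrial genes were higher in KHT, where 26.5% of all genes tested were. Without NEG 1 the edgeR adjusted p was 0.0642 for mt-Ty and 0.0782 for mt-Ts1, and without NEG 3 or NEG 4 that of mt-Ts1 was 0.0535 or 0.0517.

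**Figure D2:**
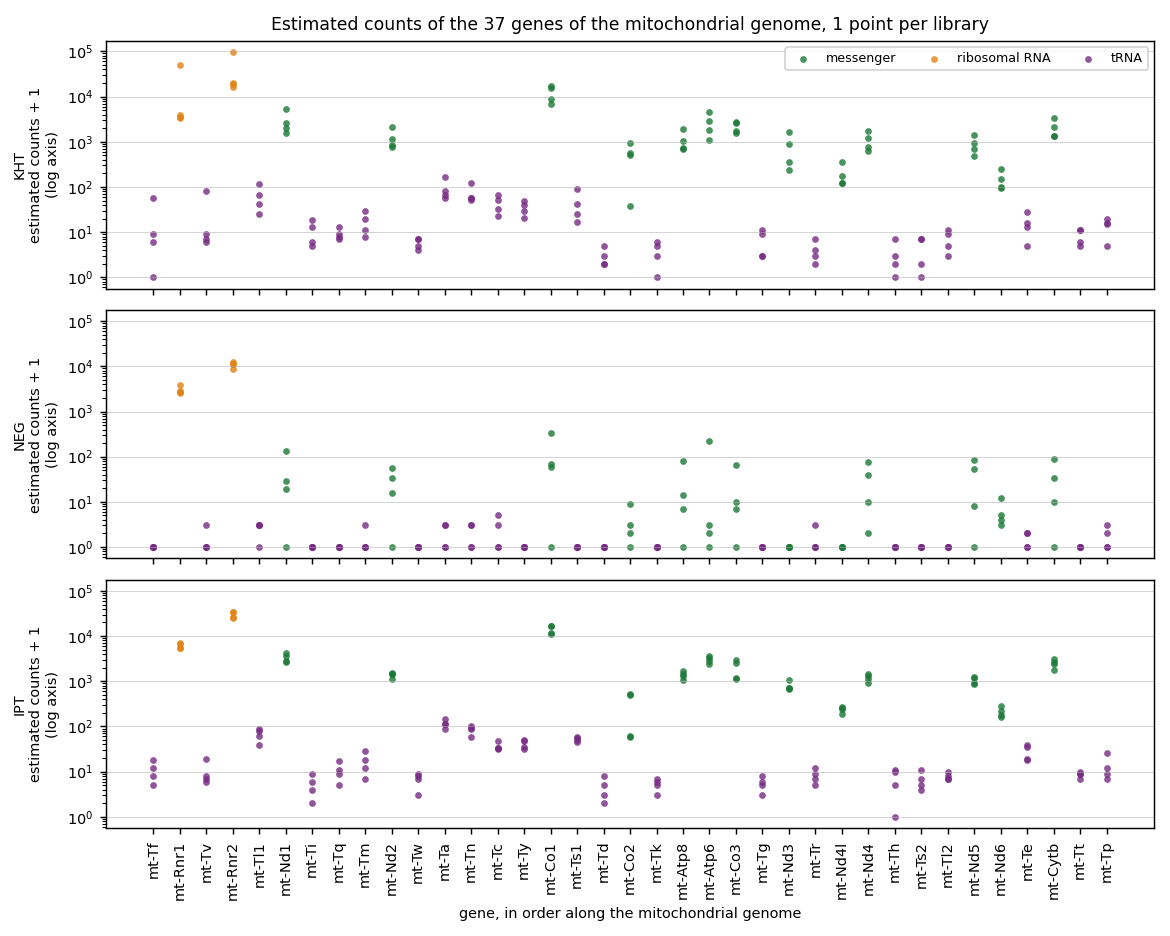
Estimated counts plus 1 (log axis) of the 37 mitochondrial genes in their order along the genome (x axis), with KHT, NEG and IPT from top to bottom and 1 point per library. In NEG the ribosomal RNAs stay at 2570 counts or more while each messenger lies at 329 or less, and mt-Nd3, mt-Nd4l, mt-Ty and mt-Ts1 are at 0 in every NEG library.

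The other 11 messengers did not pass the test against NEG, with wide errors. mt-Co1, the catalytic subunit of complex IV, had 15110, 8890, 16831 and 7021 counts in KHT, 0, 59, 69 and 329 in NEG 1, 3, 4 and 5, and 16340, 10939, 11965 and 16455 in IPT. In normalised CPM it stood at 1984, 2030, 1901 and 1744 in KHT and at 0, 356, 462 and 1344 in NEG. The groups did not overlap, yet NEG 5 came close to KHT, and the log2 fold change of 1.82 (SE 1.01) had an edgeR adjusted p of 0.149. Without NEG 5 the edgeR adjusted p was 0.0276, with a median of all genes of 6.24 on the log2 scale. mt-Co3, another core subunit of complex IV, had a log2 fold change of 1.97 (SE 0.91, edgeR adjusted p = 0.0908), and its adjusted p was 0.00212 without NEG 5 and 0.0450 with DESeq2. mt-Co2, whose protein accepts electrons from cytochrome c, had 2.52 (SE 1.07, edgeR adjusted p = 0.0770), which passed without KHT 4 (edgeR adjusted p = 0.0244) and with DESeq2 (adjusted p = 0.0367). Counting by non-overlap, 6 of the 23 tested genes had every KHT library above every NEG library, where 45.8% of all genes tested did: mt-Co1, mt-Co3, mt-Nd3, mt-Nd4l, mt-Ty and mt-Ts1. The 2 ribosomal RNAs had every KHT library below every NEG library, where 1.02% of all genes did.

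NEG 5 held 1155 of the 1575 messenger counts of the NEG group, or 73.3%. NEG 3 had 262 and NEG 4 had 153, while NEG 1 had 5, of which 4 fell on mt-Nd6 and 1 on mt-Nd4. In NEG 3, 4 and 5, counts were found on 11 of the 13 messengers each. mt-Atp6, a subunit of the proton channel of ATP synthase, had 2860, 1792, 4609 and 1101 counts in KHT, 0, 2, 1 and 225 in NEG and 3248, 2432, 2862 and 3625 in IPT. One NEG library, NEG 5, thus stood far above the rest. With counts of its nuclear copy Gm10925 added, NEG 1, 3, 4 and 5 had 0, 56, 23 and 228, so the gap was narrower. For mt-Atp6 alone, the log2 fold change between KHT and NEG was 0.74 (SE 1.17, edgeR adjusted p = 0.615) with all libraries. It was 6.19 (edgeR adjusted p = 0.000156) without NEG 5, near the median of 6.24 over all genes in that fit. With the copy added and all libraries it was 0.34 (SE 0.95, edgeR adjusted p = 0.782). The fit without NEG 5 was not run with the copy added. In all, 9 mitochondrial genes were higher in KHT when NEG 5 was left out, where 47.2% of all genes were, and 2 when NEG 1 was, where 15.0% of all genes were.

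Under TMM scaling, the smallest differences between KHT and NEG among the messengers were those of mt-Nd6 and mt-Nd4. mt-Nd6, a complex I subunit and the only messenger encoded on the opposite strand, had 149, 101, 247 and 95 counts in KHT, 4, 3, 2 and 11 in NEG and 218, 179, 161 and 276 in IPT. In normalised CPM this was 23.5 ± 3.42 in KHT, 23.3 ± 14.5 in NEG and 25.3 ± 2.50 in IPT, with overlapping groups. Its log2 fold change between KHT and NEG was -0.06 (SE 0.43, edgeR adjusted p = 0.915). mt-Nd4 had 0.18 (SE 0.79, edgeR adjusted p = 0.858) and mt-Nd5 -0.36 (SE 0.85, edgeR adjusted p = 0.743). On total counts the smallest were mt-Nd5 at 3.51, mt-Nd6 at 3.91 and mt-Nd4 at 4.06. mt-Nd5 and mt-Nd6 share 14 bases on opposite strands, and the kit keeps strand, but no source used here says whether the authors' counting did. mt-Nd1, mt-Nd2, mt-Atp8 and mt-Cytb, the messenger of cytochrome b in complex III, had log2 fold changes of 0.57 to 1.11 with edgeR adjusted p-values of 0.331 to 0.574.

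The ribosomal RNAs went the other way under TMM scaling. mt-Rnr1, the RNA of the small mitochondrial ribosomal subunit (MT, 70 to 1024), stood at 518, 821, 5544 and 831 normalised CPM in KHT, at 16811, 15498, 18494 and 11823 in NEG and at 737, 761, 808 and 705 in IPT. Every NEG library was above every IPT library, where 1.74% of all genes tested were, and above every KHT library. It was lower in KHT than in NEG by a log2 fold change of -3.02 (SE 0.83, edgeR adjusted p = 0.0120), but on total counts the change was 1.06 (edgeR adjusted p = 0.265), so its direction depends on the scaling. mt-Rnr2, the RNA of the large subunit (MT, 1094 to 2675), stood at 2692, 4387, 10967 and 3969 CPM in KHT, at 54286, 53412, 76729 and 45689 in NEG and at 3720, 3613, 3966 and 3631 in IPT. Again NEG did not overlap with KHT or IPT. Its log2 fold change between KHT and NEG was -3.39 (SE 0.67, edgeR adjusted p = 0.00325), and 0.70 on total counts (edgeR adjusted p = 0.460). With no filter on low counts neither passed, with edgeR adjusted p-values of 0.264 for mt-Rnr1 and 0.288 for mt-Rnr2.

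KHT 3 differed from the other KHT libraries in its ribosomal RNA. It held 49089 counts of mt-Rnr1, against 3346 to 3946 in KHT 1, 2 and 4, which is 7.66-fold their mean in normalised CPM. mt-Rnr2 was 2.98-fold their mean, while the summed messengers were 1.14-fold. Per kilobase, mt-Rnr2 was 2.61 ± 0.955 times mt-Rnr1 in KHT, 2.22 ± 0.249 times in NEG and 2.997 ± 0.106 times in IPT, and the ratio in KHT 3 was 1.19. The transfer RNAs on either side of mt-Rnr1 stood out in the same library. mt-Tf, for phenylalanine, had 8, 0, 55 and 5 counts in KHT 1 to 4, and mt-Tv, for valine, had 8, 6, 82 and 5. CT010467.1, the most abundant of the 9 features, was likewise highest in KHT 3, at 30.2% of all counts against 12.7%, 17.8% and 23.5% in KHT 1, 2 and 4, whereas Lars2, the second of them, was lowest there, at 8.22% against 10.9%, 17.8% and 18.9%.

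The comparison of KHT with IPT asks whether the bait held some RNAs more than their level in the input. No mitochondrial gene passed: 0 of 23 were higher, where 0.00933% of all genes tested were (1 gene), and 0 were lower, where 0.0% of all genes were. In the fit of 3 groups none had an unadjusted p under 0.05 in edgeR, where 175 of all genes did. With KHT and IPT fitted alone 1 of 24 did, mt-Co3, where 312 of all 10908 genes tested did. None was called by DESeq2 or limma voom. In none of the 23 did the 4 KHT libraries lie wholly above or wholly below the 4 IPT libraries, where 0.84% of all genes tested lay above and 1.17% below. Among the 14 genes not tested, the isoleucine transfer RNA mt-Ti lay wholly above, at 0.993 to 2.36 CPM in KHT and 0.105 to 0.852 in IPT. This rests on 39 and 17 summed counts. The log2 fold changes of the 13 messengers ran from -0.11 to 1.29 with a median of 0.13, against 0.01 over all genes, and 12 of 13 were above 0, as were 51.4% of all genes. On total counts, the median was -0.14 over the messengers and -0.24 over all genes, and 2 of 13 messengers and 19.6% of all genes were above 0. These values describe the list and were not tested as a set.

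mt-Co1 stood at 1914 ± 126 normalised CPM in KHT and 1696 ± 106 in IPT, a log2 fold change of 0.17 (SE 0.98) that was -0.068 on total counts. The SE of 0.98 comes from a fit whose spread includes the NEG libraries, and with KHT and IPT fitted alone it was 0.15, with an edgeR adjusted p of 0.997. mt-Co3 had 355, 391, 292 and 383 CPM in KHT and 309, 157, 175 and 262 in IPT, so that IPT 1 lay within the KHT range. Its log2 fold change of 0.66 had an SE of 0.21 with KHT and IPT fitted alone (edgeR adjusted p = 0.997). mt-Co2, the third complex IV subunit encoded here, had the highest messenger fold change, 1.29 (SE 0.80), and the most uneven values. It had 959, 497, 556 and 36 counts in KHT and 534, 60, 56 and 507 in IPT. KHT 4, IPT 2 and IPT 3 had 60 counts or less and the other libraries 497 or more, a split that crosses the groups. The ribosomal RNAs had log2 fold changes of 1.36 (SE 0.78) for mt-Rnr1 and 0.56 (SE 0.61) for mt-Rnr2, and without KHT 3 these were -0.06 and -0.02.

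**Figure D3:**
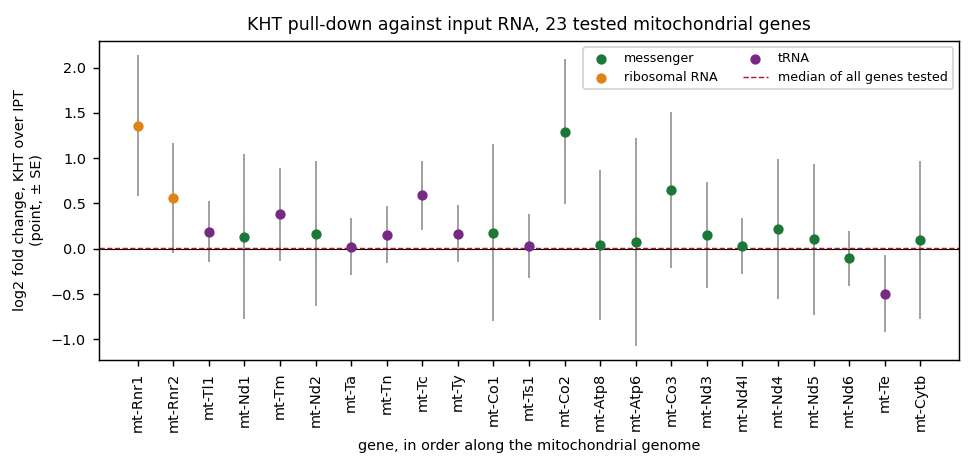
Log2 fold change of KHT over IPT (y axis, point ± SE from the edgeR fit of 3 groups) for the 23 tested mitochondrial genes in genome order (x axis). The points lie between -0.50 and 1.36 around the median of all genes tested (dashed, 0.01), with mt-Rnr1 and mt-Co2 highest, and none passed the test.

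Within the messengers, complex by complex, KHT had a make-up close to that of the input, with overlapping library ranges. The 7 complex I messengers made up 25.6% ± 3.78 of messenger counts in KHT and 26.6% ± 2.99 in IPT. mt-Cytb, of complex III, made up 7.47% ± 0.757 and 7.96% ± 0.760 in KHT and IPT. The 3 complex IV messengers made up 54.0% ± 5.36 and 51.3% ± 3.76, and the 2 messengers of complex V 12.9% ± 1.76 and 14.2% ± 0.766. mt-Co1 alone took 44.0% ± 3.44 in KHT and 44.5% ± 1.67 in IPT. For none of the 13 messengers did the ranges of its share fail to overlap between KHT and IPT, and the same held with mt-Co1 left out of the total. It also held with the nuclear copies Gm10925 added to mt-Atp6 and Gm10222 to mt-Nd4l. The other copies were added to none, among them Gm28661 and Gm28437 with 13520 and 11543 counts in KHT, against 1079 for Gm10925.

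Per kilobase of gene, mt-Co1 was the highest messenger in both groups, at 1239 ± 81.3 CPM per kilobase in KHT and 1098 ± 68.8 in IPT. In IPT the order of levels went on with mt-Atp8 (822 ± 115), mt-Atp6 (548 ± 57.0), mt-Nd1 (431 ± 104), mt-Co3 (288 ± 91.9), mt-Nd3 (286 ± 111) and mt-Cytb (267 ± 45.0). The lower part held mt-Nd2 (167 ± 30.0), mt-Nd4 (106.5 ± 12.2), mt-Nd4l (99.2 ± 13.9), mt-Nd5 (70.6 ± 3.79), mt-Nd6 (48.8 ± 4.81) and mt-Co2 (46.3 ± 39.4), so the mean of mt-Co1 was 23.7 times that of mt-Co2. Neighbours from mt-Atp6 down to mt-Cytb overlapped in their ranges over the IPT libraries, as did mt-Nd4 with mt-Nd4l and mt-Nd6 with mt-Co2. mt-Atp8 and mt-Atp6 share 43 bases on the same strand and mt-Nd4l and mt-Nd4 share 7, so reads there can be assigned to either gene. Reads can also be assigned to nuclear copies. Of these, Gm28661 and Gm28437 had 18634 and 16920 counts in IPT and could not be matched to a gene. Whether this bears on the place of mt-Co2, with 1157 counts in IPT, was not tested. In KHT the order was the same but for mt-Co2, which at 114 ± 78.1 CPM per kilobase came between mt-Nd4 (124 ± 13.8) and mt-Nd4l (101 ± 24.4).

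**Figure D4:**
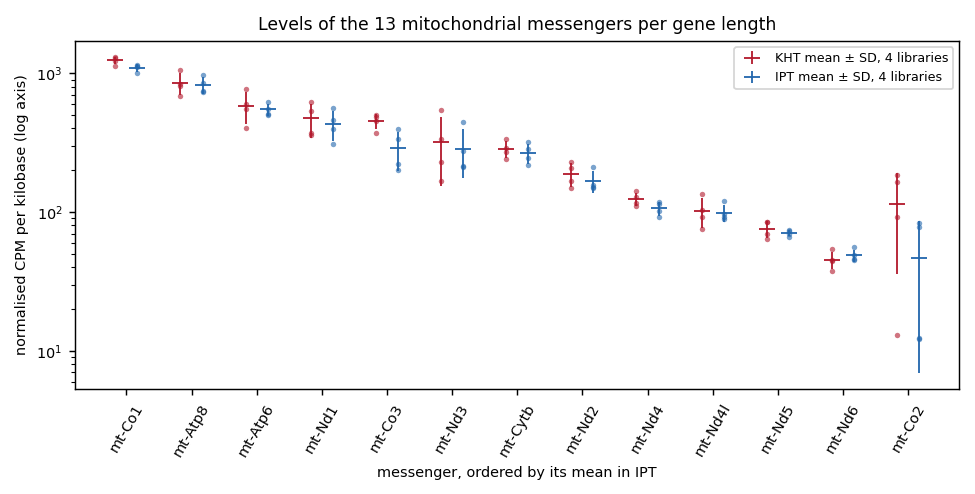
Normalised CPM per kilobase of gene (log y axis) of the 13 mitochondrial messengers, ordered by their IPT mean, in KHT (left of each pair) and IPT (right); points are libraries and bars the mean ± SD of 4. The KHT and IPT points of each messenger overlap, from mt-Co1 at 1239 and 1098 to mt-Nd6 at 45.3 and 48.8, and mt-Co2 has the widest spread.

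The mouse nuclear genome carries copies of mitochondrial sequence, and 7 gene models of this kind were in the table. Their summed counts were 4259 to 10605 in KHT, 2 to 536 in NEG and 7817 to 11457 in IPT, which was 20.4% ± 3.11, 33.3% ± 4.11 and 23.9% ± 2.29 of messengers plus copies. Reads that match both a mitochondrial gene and its copy can be assigned to either, so each such level is uncertain. Gm10925 (chromosome 1, 24613971 to 24614651) was taken as a copy of mt-Atp6, since RefSeq lists that name among its synonyms. No sequences were compared. Gm10925 had 172, 8, 174 and 725 counts in KHT, 0, 54, 22 and 3 in NEG and 200, 10, 500 and 179 in IPT. KHT 4, the library lowest in mt-Atp6 among the KHT libraries, was the highest in Gm10925, which took 39.7% of the sum of both there and 0.444% in KHT 2. Added together, they stood at 451 ± 64.2 CPM in KHT and 402 ± 69.1 in IPT, a log2 fold change of 0.16 (SE 0.94). In NEG 3, 96.4% of the sum was assigned to Gm10925, against 1.32% in NEG 5. Which mitochondrial gene the other 5 models match could not be read from the annotation used here, so they were added to none. None of the 5 models that passed the filter was called in KHT against NEG or against IPT.

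**Figure D5:**
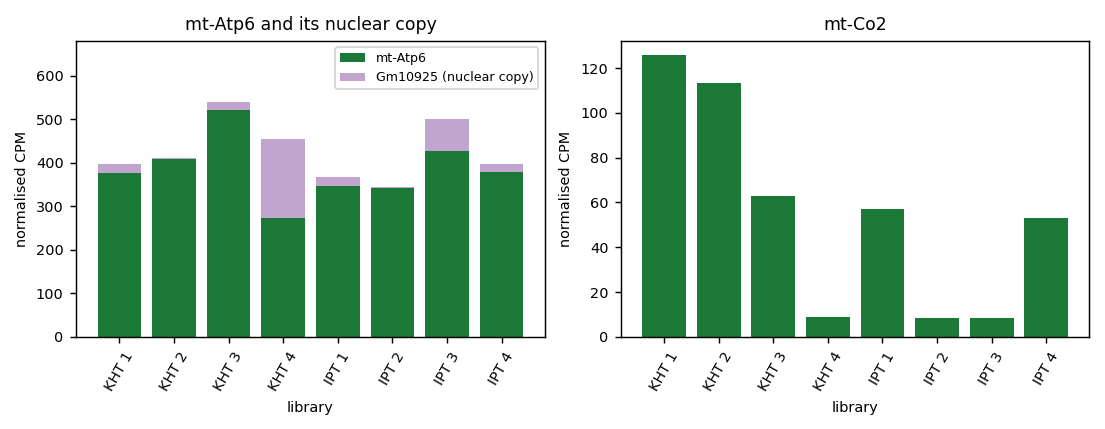
Normalised CPM (y axes) in each KHT and IPT library (x axes) of mt-Atp6 with its nuclear copy Gm10925 stacked on it (left) and of mt-Co2 (right). The copy takes 39.7% of the sum in KHT 4, and mt-Co2 lies between 8.34 and 126 CPM across libraries.

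The transfer RNAs, each 59 to 75 bases long, had few counts. Summed over the 4 libraries of a group, a transfer RNA had 8 to 368 counts in KHT, 0 to 6 in NEG and 14 to 456 in IPT. The alanine transfer RNA mt-Ta was the highest, with 82, 55, 167 and 64 counts in KHT, 0, 2, 0 and 2 in NEG and 115, 89, 142 and 110 in IPT. Counts were found in every KHT library for 18 of the 22, in every IPT library for 21, and in no NEG library for 13. Absence from NEG was common in the whole table. Of its 27071 features, 2173 to 7047 had counts in a NEG library, against 16194 to 18532 in a KHT and 17246 to 18903 in an IPT library. The 8 transfer RNAs encoded on the same strand as mt-Nd6 had a median of 152 summed counts in KHT and 151.5 in IPT, against 23 in KHT and 25.5 in IPT for the other 14. Of these 8, 6 passed the filter, and of the other 14, 2 did (mt-Tl1 and mt-Tm). These 8 made up 67.8% ± 5.84 of transfer RNA counts in KHT and 70.9% ± 2.71 in IPT. The tested transfer RNAs other than mt-Ty and mt-Ts1 did not pass against NEG, mt-Ta coming nearest with a log2 fold change of 1.53 (edgeR adjusted p = 0.0952). Against IPT, the 8 tested ones ran from -0.50 (SE 0.42), for the glutamate transfer RNA mt-Te, to 0.59 (SE 0.38), for the cysteine transfer RNA mt-Tc. Counts per gene do not tell mature transfer RNAs from uncut precursors.

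The comparison of NEG with IPT sets the control recoveries beside the RNA that went in. The same 6 genes passed: 2 were higher in NEG, the ribosomal RNAs, where 3.64% of all genes tested were, and 4 were lower, mt-Nd3, mt-Nd4l, mt-Ty and mt-Ts1, where 32.5% of all genes were. mt-Rnr1 had a log2 fold change of 4.38 (SE 0.88, edgeR adjusted p = 0.00301) and mt-Rnr2 of 3.95 (SE 0.69, edgeR adjusted p = 0.00146), but on total counts these were 0.02 and -0.42, neither of them past the test. mt-Nd3 was at least 25.2-fold lower in NEG and mt-Nd4l, counted without its copy Gm10222, at least 7.74-fold lower. This comparison and that of KHT with NEG share the NEG libraries and are not independent.

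Nuclear genes whose products make, process or stabilise mitochondrial RNA were set beside them, as a list of 58, of which 53 were tested. In KHT, 16 of the 53 (30.2%) were higher than in NEG, close to the 31.0% of all genes, and the median log2 fold change was 1.48. None was lower by edgeR, where 2.72% of all genes were, against 1 by DESeq2, where 3.67% of all genes were. In edgeR, 24 of the 53 had an unadjusted p under 0.05 in either direction, where 48.8% of all genes tested did. Lrpprc, which stabilises mitochondrial messengers, stood at 53.0 ± 9.13 CPM in KHT, 11.5 ± 15.5 in NEG and 54.6 ± 2.87 in IPT, with a log2 fold change of 2.11 over NEG (edgeR adjusted p = 0.0238). It did not pass without NEG 1 (edgeR adjusted p = 0.0523) or NEG 3 (edgeR adjusted p = 0.0615). Its partner Slirp did not pass (edgeR adjusted p = 0.0662). Polrmt, the mitochondrial RNA polymerase, had 283 counts in KHT and 1 in NEG, a ratio of 9.05 after scaling with a counting interval of 1.61 to 359 (edgeR adjusted p = 0.0236). It did not pass without NEG 1 (edgeR adjusted p = 0.0816) or NEG 3 (edgeR adjusted p = 0.0558). Trnt1, which adds the CCA end to transfer RNAs, had 609 counts in KHT and 2 in NEG, a ratio of 9.74 with an interval of 2.68 to 80.6 (edgeR adjusted p = 0.00572). Twnk, the helicase of mitochondrial DNA replication, was at 0 in NEG and at least 2.85-fold higher in KHT (edgeR adjusted p = 0.00951). Tfam, which packages mitochondrial DNA and starts its transcription, did not pass, with 202 counts in KHT and 4 in NEG (log2 fold change 0.67, edgeR adjusted p = 0.441). Against IPT, 0 of the 53 were higher in KHT and 0 lower, with none at an unadjusted p under 0.05 and a median of 0.03.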

How the data were processed

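RNA of 13 libraries was sequenced from strand-keeping libraries depleted of ribosomal RNA, per the labels' protocols. Per the values, the authors deposited unscaled estimated counts (expected counts) of each gene, and the submitters' processing notes name kallisto, DESeq2, GRCm38 and mm10 with no versions or roles. All values were whole numbers, so rounding changed none. Samples were grouped by title, since the KHT samples' description mentions a negative control while their treatment names KHT. NEG 2 was 0 throughout and left out, so 12 libraries were fitted.

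Genes were tested by edgeR's quasi-likelihood test (version 4.0.16, R 4.3.3, robust glmQLFit). The 3 groups shared 1 fit of the 10714 genes left by filterByExpr, scaled by TMM. A two-sided p, Benjamini-Hochberg adjusted over all of them, passed below 0.05. Alternatives included DESeq2 1.42.0, voom of limma 3.58.1, other scalings and filters, 2 groups alone, a replicate block, halved values (as if both mates of a pair had been counted) and leaving out each library. A gene at 0 in a group was compared with 3 counts for the whole group as a floor, and 1 to 3 counts got a ratio with an exact 95% binomial interval, both for counting error only. Both take each count as a separate read, and would be looser if both mates of a pair had been counted. Symbols were known for 27004 of 27071 identifiers. Per-library values are given for genes past the threshold, both ribosomal RNAs, the highest and lowest messenger per kilobase and mt-Nd6, and for mt-Co3, mt-Atp6, mt-Ta, mt-Tf, mt-Tv and the nuclear copies, chosen, like Pecam1, after their values were seen. From the list of nuclear genes, Lrpprc, Slirp, Polrmt, Tfam and the lowest p-values were named. The members and lists were chosen with earlier results of these data known. No sequences were printed, since the references used here hold none for these genes.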

Additional observations from a re-analysis of the deposited data

Results flagged for a closer look

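Among 74 groups of 4 libraries examined for a library far from the others (a gap to its neighbour past Dixon's critical value), 7 held one, and chance gives about 1 in 20. In KHT, mt-Rnr1 stood at 5544 normalised CPM in KHT 3, against 518 to 831 in the other KHT libraries, and both ribosomal RNAs together took 3.96% of all counts there. In NEG, mt-Atp6 stood at 919 CPM and mt-Nd6 at 44.9 CPM in NEG 5, while mt-Tm, the methionine transfer RNA, stood at 12.1 CPM in NEG 3 and rests on 2 counts. Summed with its nuclear copy Gm10925, mt-Atp6 stood at 338, 154 and 931 CPM in NEG 3, 4 and 5. In IPT, mt-Nd2 stood at 220 CPM and mt-Ta at 21.1 CPM in IPT 3.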

How the results depend on the processing

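Against NEG, the count of mitochondrial genes higher in KHT was 4, and it became 21 on total counts alone, 2 with halved values and 2 to 9 with a library left out (2 without NEG 1, 9 without NEG 5). Of all genes, 31.0% were higher in KHT, 97.3% on total counts, 26.5% with halved values, 15.0% without NEG 1 and 47.2% without NEG 5. The count lower in KHT was 2, and 0 on total counts or with no filter on low counts (all genes: 2.72%, then 0.131% and 2.92%). For NEG with IPT, the higher count of 2 became 0 on total counts and 0 with no filter (all genes: 3.64%, then 0.467% and 3.65%). The lower count of 4 became 21 on total counts, 2 with halved values and 2 to 9 with a library left out (all genes: 32.5%, then 97.3%, 27.4%, 15.6% without NEG 1 and 47.4% without NEG 5). Of the nuclear list, 16 passed as higher in KHT against NEG, 53 on total counts, 7 with halved values and 7 to 30 with a library left out. DESeq2 called 1 lower, where 3.67% of all genes were. For NEG with IPT, 16 of that list were lower, and 53 on total counts. The count was 10 with a filter at 10 CPM on average, 8 with the 2 groups alone and 9 with halved values, where 31.7%, 21.9% and 27.4% of all genes were lower. It was 7 to 27 with a library left out. Of the list, 0 were higher, 1 by DESeq2 (4.35% of all genes) and 0 to 1 with a library left out. For KHT with IPT, the counts of mitochondrial and of listed nuclear genes past the test were 0 under all alternatives run.

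On total counts the log2 fold changes of KHT over NEG were 1.06 for mt-Rnr1 and 0.70 for mt-Rnr2, that of KHT over IPT for mt-Co1 was -0.068, and that of NEG over IPT for mt-Rnr2 was -0.42. Leaving out a library gave KHT over IPT values of -0.059 to 1.67 for mt-Rnr1 and -0.022 to 0.79 for mt-Rnr2, the lowest without KHT 3. The causes of these shifts were not tested. Halved values and the filter of 10 CPM also test fewer genes.

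Same-numbered libraries showed little shared deviation (correlations of -0.33 to 0.20 for KHT with IPT, -0.12 to 0.07 for KHT with NEG, -0.01 to 0.09 for NEG with IPT), and 1 of 8, 2 of 6 and 2 of 6 libraries correlated best with their own number. With so few libraries, this cannot tell whether same-numbered libraries came from the same RNA or batch. The main fit used no pairing. With the replicate block, in which NEG 5 has a number to itself, 9 mitochondrial genes passed as higher in KHT against NEG and 9 as lower in NEG than in IPT, where 47.1% and 46.9% of all genes did, and 26 and 25 of the nuclear list, while mt-Ts1 no longer passed (edgeR adjusted p = 0.0529). Only 2 of the 7 nuclear copies could be matched to a mitochondrial gene, so adding copies was run for those alone. Depth limits the NEG group most, with 1575 messenger counts in all.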

Other observations

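The few messenger counts of the NEG libraries were in part spread over the messengers in another way than in KHT. mt-Co1 held 22.5% and 28.5% of them in NEG 3 and 5, but 45.1% in NEG 4, within the 39.5% to 47.3% of KHT libraries. mt-Nd5, the longest messenger, held 19.8%, 4.58% and 7.36% of the messenger counts of NEG 3, 4 and 5, against 2.92% to 3.49% in KHT libraries. The mt-Nd5 share in NEG 4 was 7 counts, and in NEG 3 the 52 counts of mt-Nd5 were close in number to the 59 of mt-Co1. mt-Atp6 held 0.763%, 0.654% and 19.5% of the messenger counts of NEG 3, 4 and 5, or 2, 1 and 225 counts. Its nuclear copy Gm10925, which is left out of the shares, held 54, 22 and 3 counts there. The differences in mt-Atp6 between NEG libraries therefore depend on how reads were assigned between the gene and its copy. These shares rest on 262, 153 and 1155 counts, and no test was run on them.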
